A study of Rattus norvegicus with 22 samples.

Results

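The genes described here are the potassium channel genes of the rat, taken from the count table as every symbol that starts with Kcn followed by lower case letters and, where present, a number. There were 92 such genes among the 32883 genes of the table. By the letters of their names they were 38 voltage-gated pore subunits, 13 accessory subunits or regulators of voltage-gated channels, 15 inward rectifiers, 14 two-pore channels, and 12 calcium-activated channels or their relatives and beta subunits. RNA-seq was carried out on the ventral cervical spinal cord of 22 Sprague-Dawley rats to learn how removal of the gonads, and sex, affect gene expression in this tissue. The 4 groups were 5 intact males, 5 castrated males with the testes removed (GDX), 6 intact females and 6 Ovariectomized females with the ovaries removed (OVX). Tissue was collected 2 weeks after surgery from rats aged 3 to 4 months. The controls were age-matched rats with gonads, and no sham operation was described, so that the loss of the gonads cannot be told apart from anesthesia, buprenorphine given before surgery, or the surgery itself. Rats are named by the number in their label, so that intact males are rats 1, 2, 3, 5 and 6 and GDX males rats 1, 2, 4, 5 and 6, and each rat gave 1 library.

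Potassium channels let potassium leave the cell along its gradient and so set the resting potential, end the action potential and limit the rate of firing. Voltage-gated members open on depolarization, two-pore members carry the leak current at rest, inward rectifiers hold the resting potential and, in astrocytes, take up potassium released by active neurons, and calcium-activated members follow the entry of calcium during a spike. In the ventral horn they shape the firing of motor neurons and interneurons and the conduction of myelinated axons.

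Between 12371756 and 17571887 reads were counted per library, and the group medians were 14196615 and 15645521 for intact and GDX males, against 14640726 and 14766802.5 for females with and without ovaries. Levels are given as CPM, counts brought to a common library size with the TMM method, and were not compared between genes, since they were not divided by length. The 92 genes together took 0.329%, 0.341%, 0.306%, 0.339% and 0.335% of the counts in intact males 1, 2, 3, 5 and 6. In GDX males 1, 2, 4, 5 and 6 they took 0.304%, 0.296%, 0.239%, 0.242% and 0.264%. Each GDX male was thus below each intact male, and GDX males 4 and 5 were the lowest. For females the share was 0.307% ± 0.0134 (SD) with gonads and 0.291% ± 0.0222 (SD) after OVX, with n = 6 each. Of the 92 genes, 58 had at least 10 counts in every library, 16 had fewer than 50 reads over all libraries, and Kcne1, an accessory subunit of heart and inner ear channels, had none. A count of 0 allows a level of up to 0.00912 CPM over all libraries, and this limit covers counting error only. The average fragment size of the libraries fell into a short and a long class, and all GDX and OVX libraries were short, while intact males 1, 3 and 6 and intact females 2, 3, 5 and 6 were long. In tissue RNA of this kind, fewer cells of a type and less RNA per cell cannot be told apart.

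After removal of the testes, potassium channel genes were mostly lower. Of the 70 genes that passed the filter on low counts, 22 differed between GDX and intact males. Of all 14931 genes tested 13.4% did. A gene is called different where its p, from the quasi-likelihood test of edgeR with Benjamini-Hochberg adjustment, was under 0.1. Of the 22, 21 were lower in GDX males, against 6.58% of all genes, and 1 was higher, against 6.78%. The median log2 fold change of the 70 genes was -0.20 and 60 were below 0, while the median of all genes tested was 0.00. In 11 of the 70 the GDX and intact males did not overlap with GDX lower (3.94% of all genes), and in 0 did they not overlap with GDX higher (3.54% of all genes). Each class held some called genes and more that were not called, and no test was made per class. Among voltage-gated subunits 10 of 31 tested were lower (median -0.21), among their accessory subunits 3 of 10 (median -0.22), among inward rectifiers 3 of 12 (median -0.08), among two-pore channels 3 of 9 (median -0.27) and among calcium-activated channels 2 of 8 (median -0.18). The count of 22 was 11 without GDX male 5, where 7.99% of all genes were called.

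**Figure D1:**
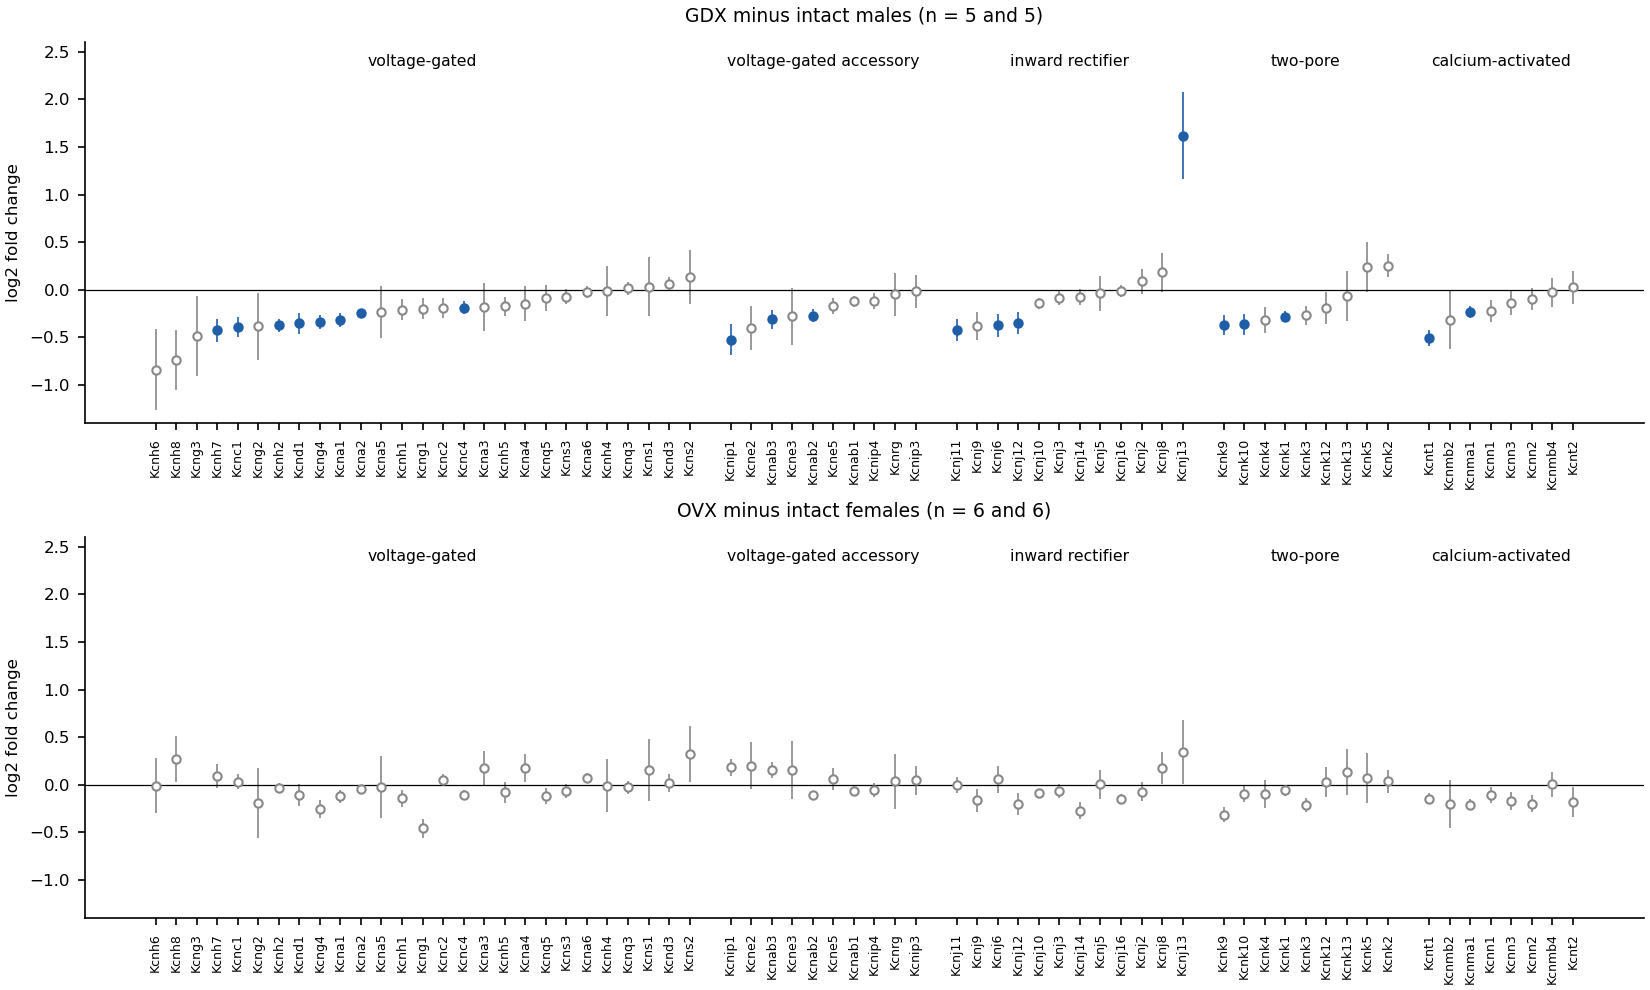
The log2 fold change of the genes tested and reported is plotted by channel class, GDX minus intact males above and OVX minus intact females below, with bars of 1 SE and filled points for an adjusted p under 0.1. Of the filled points after GDX only Kcnj13 lies above 0, and after OVX none is filled.

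The voltage-gated subunits Kcna1 and Kcna2 form low-threshold channels that lie beside the nodes of myelinated axons. Kcna2 had 730.3, 676, 653, 673 and 704 CPM in intact males 1, 2, 3, 5 and 6, and 589, 608, 564, 536 and 598 CPM in GDX males 1, 2, 4, 5 and 6. The groups did not overlap, and GDX male 5 was the lowest. Its mean fell from 687 ± 30.2 CPM (SD, n = 5) to 579 ± 29.0 CPM (SD, n = 5), a log2 fold change of -0.25 (adjusted p = 0.0082, SE 0.05). Kcna1 had 199, 187, 176, 198 and 219 CPM in the intact and 181, 168, 147, 137 and 153 CPM in the GDX males, in the same order of rats. Here GDX male 1 lay above intact male 3, and the other GDX males lay below all intact males. The log2 fold change of Kcna1 was -0.32 (adjusted p = 0.0166, SE 0.07). It was 0.00231 (adjusted p = 0.999) in the fit with the level of meninges and fibroblast markers as a term. Kcna6, a further subunit of the same family, had 144 ± 7.79 CPM in intact and 141 ± 13.6 CPM in GDX males (log2 fold change -0.03, adjusted p = 0.854), and its groups overlapped.

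Subunits of the Kcnc family open at high voltage and close fast, which lets neurons fire at high rates. Kcnc1 had 113, 117, 93.7, 113 and 88.6 CPM in the intact and 94.5, 93.9, 68.1, 68.2 and 75.4 CPM in the GDX males, with a log2 fold change of -0.39 (adjusted p = 0.0315, SE 0.10). Intact males 3 and 6 were the low ones of their group and overlapped GDX males 1 and 2. Kcnc4 fell by 0.19 on the log2 scale (adjusted p = 0.0981, called in 2 of 10 fits that left out 1 library). Kcnc2 had 29.7 ± 4.31 CPM in intact and 26.0 ± 2.96 CPM in GDX males (adjusted p = 0.274).

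Kcnq3, a subunit of the channel of the M-current, which holds back repetitive firing, had 35.4, 35.9, 32.0, 32.4 and 35.4 CPM in the intact and 37.8, 37.8, 30.5, 34.8 and 31.9 CPM in the GDX males. Intact males lay within the range of GDX males for Kcnq3, with a log2 fold change of 0.02 (adjusted p = 0.918, SE 0.07). The ERG channels, which close slowly and so carry current after a spike, were lower in both members called. Kcnh2 had 92.2, 98.05, 91.1, 99.9 and 87.8 CPM in the intact and 80.2, 81.9, 62.2, 68.4 and 69.2 CPM in the GDX males. The groups did not overlap, and the log2 fold change was -0.37 (adjusted p = 0.00773, SE 0.07). Kcnh7 had 11.99 ± 2.30 CPM in intact and 8.90 ± 0.744 CPM in GDX males (log2 fold change -0.43, SE 0.12, adjusted p = 0.045), with intact males 1 and 6 inside the GDX range. Kcnh8, of the related ELK channels, also had groups that did not overlap, 1.93 ± 0.358 CPM against 1.14 ± 0.534 CPM, but an adjusted p of 0.166.

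Silent subunits such as Kcng4 and Kcng1 change the gating of other voltage-gated pores without forming channels of their own. Kcng4 had 89.1, 95.1, 84.2, 91.7 and 112.5 CPM in the intact and 76.1, 76.7, 64.4, 78.7 and 76.8 CPM in the GDX males. The groups did not overlap, intact male 6 was the highest and GDX male 4 the lowest, and the log2 fold change was -0.34 (adjusted p = 0.0125, SE 0.07). Among the A-type subunits, which inactivate within a spike train, Kcnd1 was lower with 15.2 ± 2.13 CPM against 11.9 ± 1.41 CPM and no overlap (log2 fold change -0.35, adjusted p = 0.0537). Kcnd3 had 19.7 ± 1.03 CPM in intact and 20.5 ± 1.74 CPM in GDX males (adjusted p = 0.668). The silent subunit Kcns3 had 26.3 ± 2.53 CPM against 25.02 ± 2.103 CPM (adjusted p = 0.616).

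The promoters of 3 of the lower voltage-gated genes are shown beside that of Kcnj13, the 1 gene that rose. The sequences are from RefSeq on the build GRCr8, while the counts were made on Rnor_6.0, and each holds the 250 bases before the start of the gene, on the strand of the gene. Capitals mark matches to GGGCGG, the GC box bound by Sp proteins, or to TATAAA, the TATA box, each searched on both strands. Kcna2 lies at chr2:197393280-197393529 on the plus strand, Kcnc1 at chr1:106038997-106039246 on the plus strand, Kcng4 at chr19:64597889-64598138 on the minus strand and Kcnj13 at chr9:95518987-95519236 on the minus strand.
Kcna2: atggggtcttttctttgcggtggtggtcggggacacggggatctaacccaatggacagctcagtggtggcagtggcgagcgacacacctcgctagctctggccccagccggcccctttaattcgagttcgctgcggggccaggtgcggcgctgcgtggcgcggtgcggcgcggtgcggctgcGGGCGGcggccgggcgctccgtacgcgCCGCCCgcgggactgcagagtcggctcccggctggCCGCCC
Kcnc1: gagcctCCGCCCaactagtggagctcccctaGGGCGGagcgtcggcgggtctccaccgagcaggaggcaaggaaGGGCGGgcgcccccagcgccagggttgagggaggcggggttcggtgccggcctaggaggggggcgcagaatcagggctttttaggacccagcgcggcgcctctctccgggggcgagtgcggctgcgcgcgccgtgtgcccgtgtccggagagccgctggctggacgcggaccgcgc
Kcng4: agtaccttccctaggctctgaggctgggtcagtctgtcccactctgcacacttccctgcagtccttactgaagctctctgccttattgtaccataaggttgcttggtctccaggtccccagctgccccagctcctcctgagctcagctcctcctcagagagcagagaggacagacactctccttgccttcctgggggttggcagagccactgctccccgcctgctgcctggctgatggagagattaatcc
Kcnj13: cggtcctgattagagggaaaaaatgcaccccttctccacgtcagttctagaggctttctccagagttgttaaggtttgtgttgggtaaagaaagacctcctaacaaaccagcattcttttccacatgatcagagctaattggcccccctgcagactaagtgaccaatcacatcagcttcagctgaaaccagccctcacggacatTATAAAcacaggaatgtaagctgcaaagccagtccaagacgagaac
Kcna2 and Kcnc1 each held 3 GC boxes, Kcng4 held none, and Kcnj13 held a TATA box 46 to 41 bases before the start. Only genes whose symbol matched exactly 1 promoter were used, which left 56 of the 92 genes and 9 of the 21 lower ones. Genes with several promoters were left out of these, but not out of the set of all promoters. The shares below therefore compare unlike sets. A GC box was found in 28 of the 56 and 6 of the 9, against 30.5% of all 33469 promoters of the table. A TATA box was found in 1 of the 56, Kcnj13, and in 0 of the 9, against 12.9% of all promoters. The letters AGAACA, part of the sequence bound by androgen and glucocorticoid receptors, were in 5 of the 56 and in 1 of the 9, Kcnab3, against 17.5% of all promoters. The letters GGTCA, part of the sequence bound by estrogen receptors, were in 14 of the 56 and 2 of the 9, against 35.4%. The median GC content was 60.8% in the 56, 69.2% in the 9 and 51.2% in all promoters. A match is a description, not a site or a cause.

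Accessory subunits set the surface level and gating of the voltage-gated pores. Kcnab2, a cytoplasmic beta subunit of the Kcna channels, had 178, 195, 165, 182 and 181 CPM in the intact and 171, 157, 135, 131 and 152 CPM in the GDX males. Only GDX male 1 lay above an intact male, rat 3, and the log2 fold change was -0.27 (adjusted p = 0.0254, SE 0.07). The beta subunit Kcnab3 was lower as well, with 28.5 ± 4.56 CPM against 22.9 ± 2.20 CPM (log2 fold change -0.31, adjusted p = 0.075), and Kcnab1 had 70.7 ± 6.20 CPM against 65.0 ± 3.64 CPM (adjusted p = 0.244). Kcnip1, a calcium-binding partner of A-type channels, had 17.7, 18.2, 16.8, 13.8 and 12.9 CPM in the intact and 9.49, 13.4, 14.97, 9.79 and 7.36 CPM in the GDX males. GDX males 2 and 4 lay inside the intact range, and the log2 fold change was -0.53 (adjusted p = 0.0598, SE 0.16). Of 10 fits that left out 1 library, 5 kept the call of Kcnip1 and 4 that of Kcnab3. Kcnip3 of the same family had 6.596 ± 1.53 CPM against 6.55 ± 1.27 CPM.

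Among inward rectifiers 3 of the 12 tested were lower. Kcnj11, the pore of the channel that closes when ATP is high, had 15.7, 14.0, 12.1, 14.8 and 11.9 CPM in the intact and 12.5, 9.12, 10.6, 8.16 and 10.8 CPM in the GDX males. GDX male 1 overlapped intact males 3 and 6, and the log2 fold change was -0.42 (adjusted p = 0.036, SE 0.12). Kcnj8, the ATP-sensitive pore of vessel walls, had 3.97 ± 0.541 CPM against 4.51 ± 1.30 CPM (adjusted p = 0.638). Kcnj6, opened by G proteins, fell by 0.37 on the log2 scale (adjusted p = 0.0774), and Kcnj12, a strong rectifier, fell by 0.35 (adjusted p = 0.0779). Of 10 fits that left out 1 library, 2 kept the call of Kcnj6 and 4 that of Kcnj12. Intact male 6, with 20.9 CPM of Kcnj12 against 12.5 to 15.2 CPM in the other intact males, was the highest, and without it the log2 fold change was -0.21 (adjusted p = 0.139). The astrocyte channel Kcnj10 had 162, 172, 197, 201 and 186 CPM in the intact and 166, 167, 154, 164 and 180.5 CPM in the GDX males, and the groups overlapped (log2 fold change -0.14, adjusted p = 0.171). Its partner Kcnj16 had 51.2 ± 4.40 CPM against 50.7 ± 2.17 CPM (log2 fold change -0.01, adjusted p = 0.92). Kcnj3, which joins Kcnj6 in channels opened by G proteins, had 13.6 ± 0.862 CPM against 12.8 ± 0.854 CPM (adjusted p = 0.543).

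Kcnj13, a rectifier of epithelia such as the choroid plexus, was the 1 potassium channel gene called higher in GDX males. It had 0.425, 0.592, 0.831, 0.309 and 0.197 CPM in the intact and 0.730, 0.750, 1.28, 2.98 and 1.50 CPM in the GDX males, which rest on 33 and 108 reads per group. GDX male 5 was the highest, and GDX males 1 and 2 lay below intact male 3. The log2 fold change was 1.62 (adjusted p = 0.0391, SE 0.45), and it was -0.48 (adjusted p = 0.932) in the fit with the level of meninges and fibroblast markers as a term. Kcnj13 passed the filter on low counts only through the GDX males, where it was high, so its test was not independent of the filter. With no filter edgeR gave a log2 fold change of 1.61 (adjusted p = 0.0366), and a filter at 1 CPM left it untested.

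Two-pore channels carry leak currents. Kcnk1 had 35.9, 38.1, 37.2, 37.9 and 39.6 CPM in the intact and 32.4, 34.2, 31.4, 27.9 and 29.1 CPM in the GDX males, which did not overlap, with a log2 fold change of -0.28 (adjusted p = 0.0121, SE 0.06). Kcnk9, an acid-sensitive leak channel of motor neurons, had 64.1, 62.1, 64.6, 57.7 and 91.7 CPM in the intact and 56.0, 55.0, 47.6, 47.6 and 56.2 CPM in the GDX males. The groups did not overlap, and intact male 6 stood above the rest of its group. The log2 fold change of Kcnk9 was -0.37 (adjusted p = 0.0397, SE 0.10). Without intact male 6 it was -0.24 (adjusted p = 0.0433), and the call was kept in 9 of 10 fits that left out 1 library. Its relative Kcnk3 had 32.9, 34.3, 35.7, 32.6 and 46.0 CPM in the intact and 33.3, 33.4, 25.3, 27.7 and 30.8 CPM in the GDX males, with intact male 6 again the highest and an adjusted p of 0.113. Kcnk3 was called by DESeq2 (adjusted p = 0.0853), by edgeR's exact test (0.0943), with all 22 rats in 1 fit (0.0871) and with the RNA integrity number as a term (0.0757). These were 4 of 12 other fits, and 2 of 10 fits that left out 1 library called it. The log2 fold change of Kcnk3 was -0.27 without an added term, and 0.0994 with the meninges and fibroblast level as a term. Intact male 6 also had the highest summed level of 9 motor neuron markers, 21055 CPM against 13364 to 16207 CPM in the other intact males, and the part of this in the result was not tested. Kcnk10, a channel opened by stretch and lipids, had 11.8 ± 0.512 CPM in intact and 9.13 ± 1.56 CPM in GDX males without overlap (log2 fold change -0.36, adjusted p = 0.0542). Kcnk2, of the same kind, had 10.3 ± 0.916 CPM against 12.3 ± 2.30 CPM (log2 fold change 0.25, adjusted p = 0.213). Kcnk13, a two-pore channel of microglia, had 2.005 ± 0.747 CPM against 1.90 ± 0.534 CPM (adjusted p = 0.913).

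In the last class, the smallest adjusted p of the family was that of Kcnt1, a sodium-activated channel grouped here with its calcium-activated relatives. Kcnt1 had 65.6, 66.4, 60.6, 60.1 and 61.6 CPM in the intact and 52.7, 49.2, 40.0, 37.1 and 41.7 CPM in the GDX males. Every GDX male was below every intact male, with GDX males 4 and 5 the lowest. The mean fell from 62.9 ± 2.94 CPM (SD, n = 5) to 44.2 ± 6.57 CPM (SD, n = 5), a log2 fold change of -0.51 (adjusted p = 0.00554, SE 0.08). Kcnma1, the pore of the BK channel that opens with both calcium and voltage, had 63.6, 61.4, 64.6, 62.6 and 69.7 CPM in the intact and 56.7, 54.9, 49.3, 49.6 and 63.0 CPM in the GDX males. GDX male 6 lay inside the intact range, and the log2 fold change was -0.23 (adjusted p = 0.038, SE 0.06). The SK channels Kcnn1, Kcnn2 and Kcnn3, which carry the slow current after a spike, had log2 fold changes of -0.22, -0.10 and -0.14, none of them called. With the RNA integrity number (RIN) as a term Kcnn1 was called (-0.35, adjusted p = 0.0757), in a fit that called 16 of the 70 genes (8.45% of all genes) and kept 14 of the 22 calls. The second sodium-activated gene, Kcnt2, had 4.22 ± 0.606 CPM against 4.30 ± 0.895 CPM. The BK beta subunit Kcnmb4 had 6.68 ± 1.19 CPM in intact and 6.56 ± 1.15 CPM in GDX males (adjusted p = 0.943). Kcnn4, the calcium-activated channel of blood and glial cells, had 41 and 54 reads in the same groups and was not tested after GDX.

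**Figure D2:**
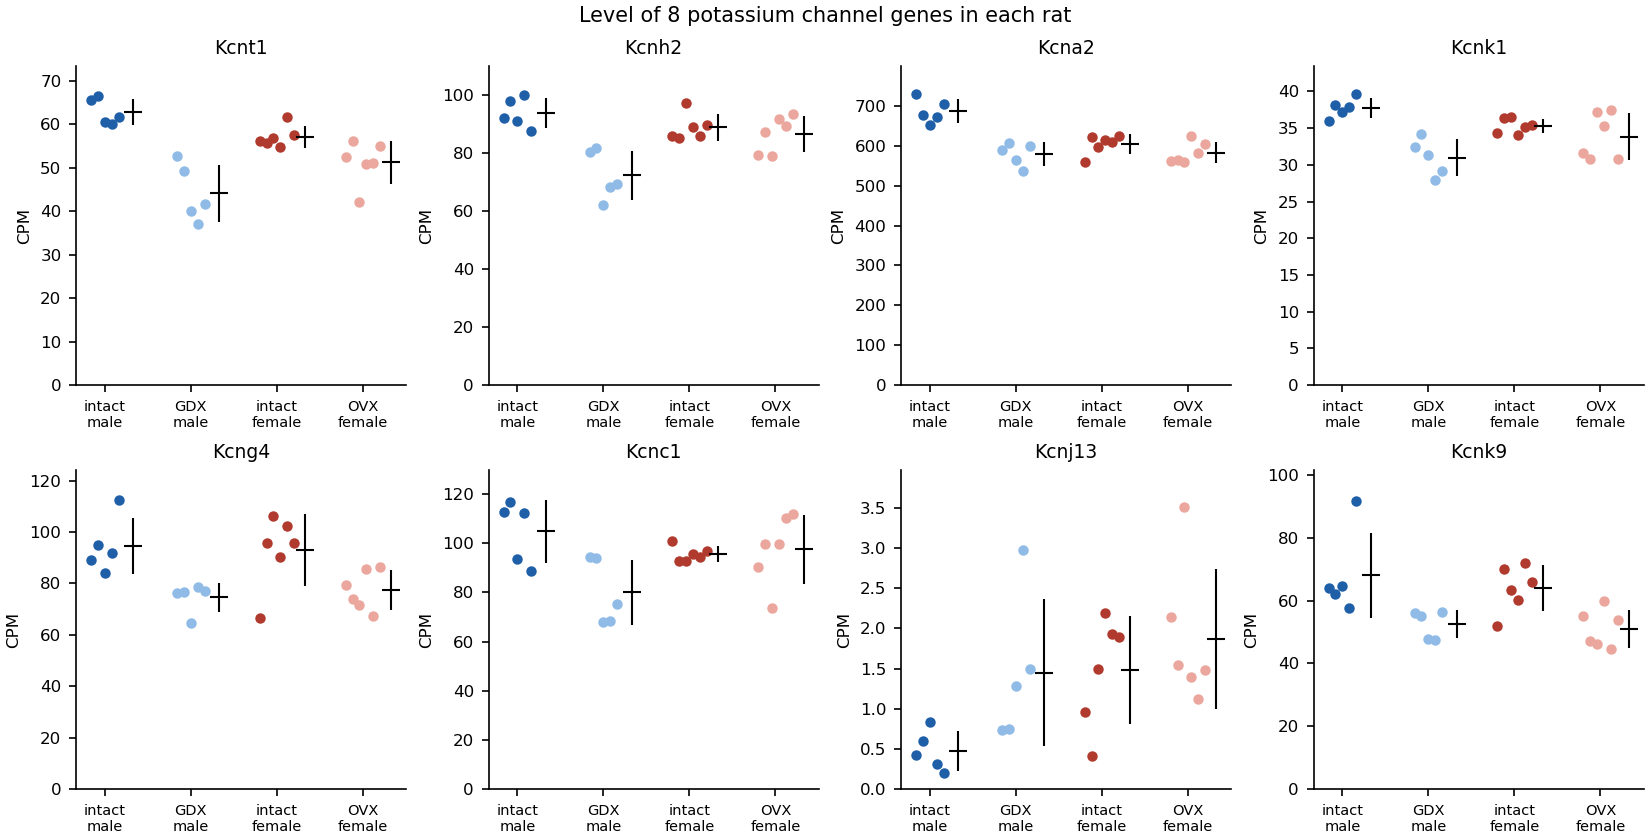
CPM of 8 potassium channel genes in each rat of the 4 groups, with the mean and SD beside the points. Kcnt1, Kcnh2, Kcna2, Kcnk1, Kcng4 and Kcnk9 do not overlap between intact and GDX males, and Kcnj13 is higher in GDX males 4, 5 and 6 than in any intact male.

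Genes that act with these channels or move potassium by other means were followed in 3 lists. Beside the counts below, 6.58% of all genes were called lower after GDX and 6.78% higher. Of the pacemaker channel genes, which carry an inward current at rest, Hcn2 fell by 0.23 (adjusted p = 0.0261), Hcn3 by 0.49 (adjusted p = 0.0931, called in 3 of 10 fits that left out 1 library) and Hcn4 by 0.42 (adjusted p = 0.0165) on the log2 scale after GDX. Of 10 partner genes tested 4 were lower, namely Dpp6 (-0.21), a partner of A-type channels, Amigo1 (-0.30), an adhesion protein, Abcc8 (-0.38), the sulfonylurea receptor joined to Kcnj11, and Adam22 (-0.23), found beside the nodes with Kcna channels. The value of Amigo1 was 0.0152 in the fit with the meninges and fibroblast level as a term. Cntn2, with the largest share of the partners' CPM, had a log2 fold change of -0.13 (adjusted p = 0.278). Abcc9, which joins Kcnj8, had one of 0.06 (adjusted p = 0.802). Of 11 pump and cotransporter genes 4 were lower, among them Slc12a5 (-0.35, adjusted p = 0.0292), the neuronal chloride exporter, and Atp1b1 (-0.29, adjusted p = 0.00778), a pump subunit. The 2 higher ones were Slc12a7 (0.80, adjusted p = 0.00554), a potassium-chloride cotransporter, and Atp1b3 (0.22), a pump subunit.

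**Figure D3:**
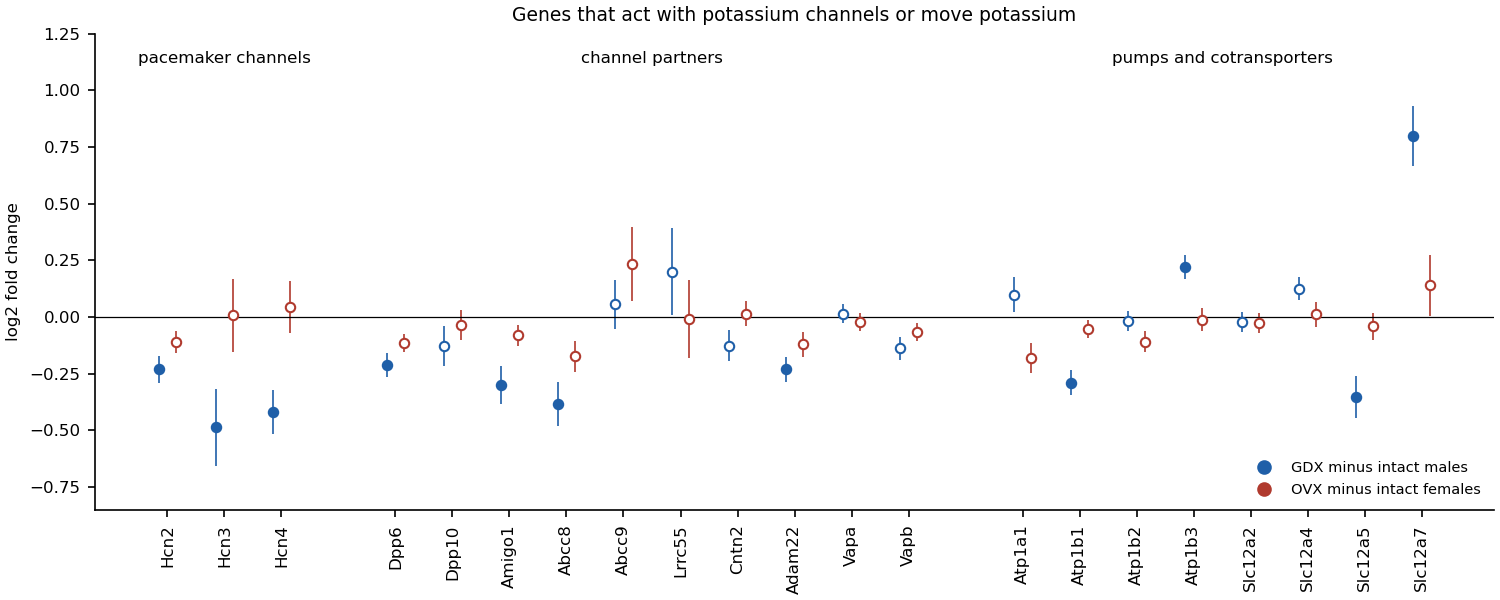
Log2 fold changes of genes of the 3 lists, with bars of 1 SE, for GDX minus intact males (blue) and OVX minus intact females (red), filled where the adjusted p was under 0.1. The pacemaker genes shown lie below 0 after GDX, and no gene of the lists is filled after OVX.

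Markers of cell types moved with these results. Their counts stand beside 6.58% of all genes called lower after GDX and 6.78% called higher. Of 11 pan-neuronal markers 5 were lower in GDX males (Rbfox3, Snap25, Syp, Map2 and Uchl1), and their summed level, led by Map2, was 4776, 4667, 4722, 4600.0 and 5069 CPM in the intact and 4248, 4359, 4286, 3934 and 4412 CPM in the GDX males, without overlap. Of 9 motor neuron markers, led by Nefm, Slc18a3 and Nefh were lower, and the sum was 15943 ± 3055 CPM in intact and 13332 ± 1067 CPM in GDX males. All 8 meninges and fibroblast markers, led by Col1a1, were higher in GDX males, with sums of 191, 123.5, 133, 85.1 and 62.7 CPM in the intact and 170.2, 283, 415, 550.0 and 443 CPM in the GDX males. GDX males 2, 4, 5 and 6 lay above all intact males, and GDX male 1 lay below intact male 1. All 6 endothelial markers were higher too (sum 123 ± 16.2 against 184 ± 17.1 CPM, led by Flt1), as were 4 of 6 markers of pericytes and smooth muscle (112 ± 12.9 against 148 ± 11.4 CPM, led by Myh11), 2 of 8 of astrocytes (5601 ± 240.2 against 6743 ± 358 CPM, led by Gfap), 2 of 8 of oligodendrocytes (24648 ± 1391 against 26833 ± 1217 CPM, led by Mbp) and 2 of 4 of Schwann cells (19.5 ± 14.7 against 44.6 ± 20.7 CPM). Among 5 markers of oligodendrocyte precursors, led by Olig1, 1 was higher and 1 lower (313 ± 12.6 against 298 ± 15.8 CPM).

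EdgeR called 0 of 6 microglial markers (1 at an unadjusted p under 0.05; sum 154 ± 11.3 against 169 ± 19.5 CPM, led by Csf1r), 0 of 4 ependymal (1 at that level; 73.6 ± 11.7 against 82.1 ± 4.73 CPM, led by Dnah12), and, with 0 at that level in each, 0 of 4 dorsal horn markers (12.3 ± 3.52 against 11.6 ± 2.55 CPM, led by Sst), 0 of 2 of sensory ganglia (6.06 ± 1.50 against 6.23 ± 0.749 CPM, led by Avil, with Mrgprd at 0) and 0 of 2 of skeletal muscle (10.5 ± 14.4 against 7.68 ± 5.12 CPM, led by Acta1). With the rat's mean pan-neuronal level as a term in the model 5 of the 70 potassium channel genes were called, Kcnt1, Kcnj13, Kcnk1, Kcna2 and Kcnj11 (4.23% of all genes). With the meninges and fibroblast level as a term edgeR called 0 (7 at an unadjusted p under 0.05), where 0.0335% of all genes were called. With the fragment class as a term 11 were called (5.33% of all genes), and among short fragment libraries, which leave 2 intact males, 6 were called (2.83% of all genes), Kcnab3, Kcnh2, Kcnh7, Kcnt1, Kcng4 and Kcnc1. The median log2 fold change of the 22 genes called without an added term was -0.35, and it was -0.35 with the pan-neuronal term, -0.33 with the fragment class, -0.33 among short fragment libraries and -0.18 with the meninges and fibroblast term. The part of each cell type in the lower potassium channel levels was not tested beyond these fits.

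**Figure D4:**
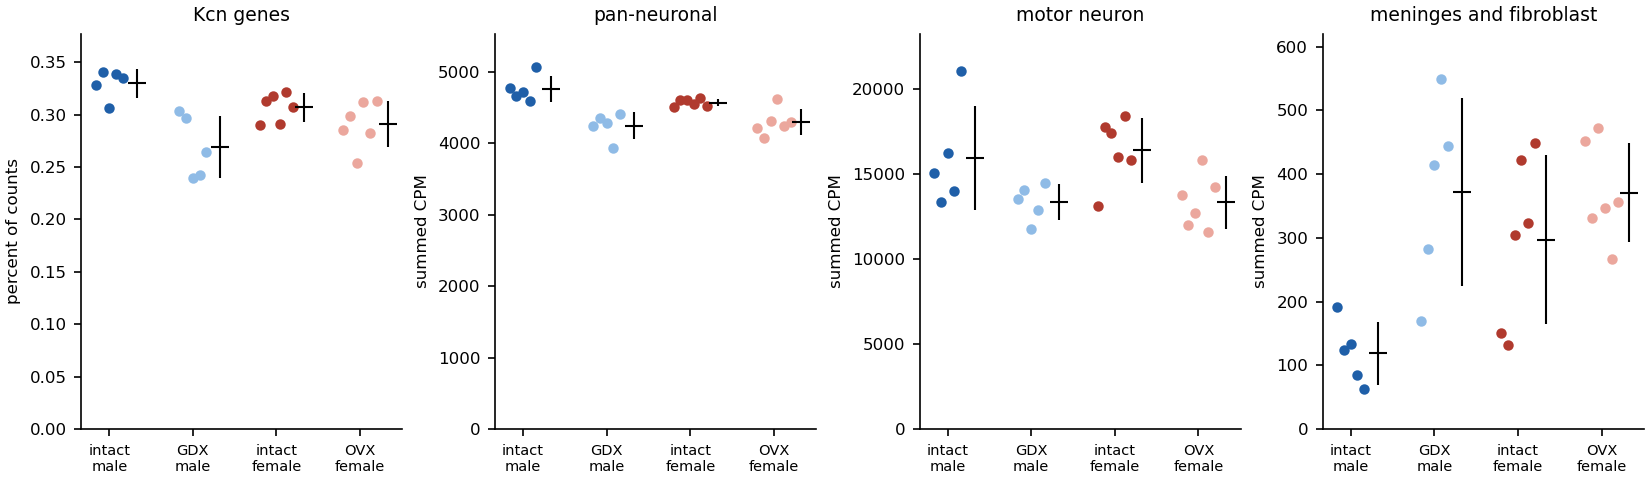
For each rat of the 4 groups, the share of counts taken by the 92 potassium channel genes and the summed CPM of the pan-neuronal, motor neuron, and meninges and fibroblast markers, with mean and SD beside the points. GDX males lie between 0.239% and 0.304% for the share, below the intact males, and between 170.2 and 550.0 CPM for meninges and fibroblast markers, where intact males lie between 62.7 and 191 CPM.

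**Figure D5:**
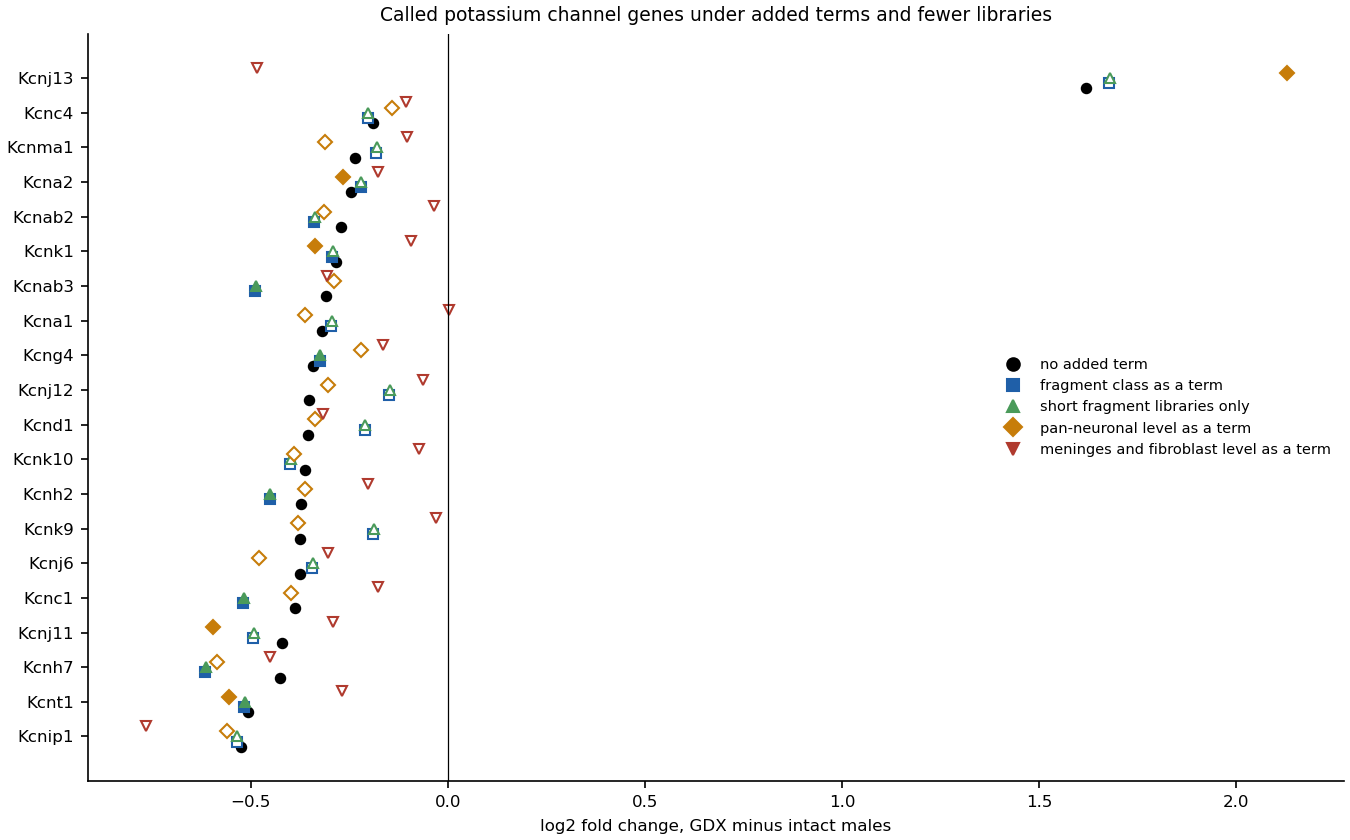
The log2 fold change, GDX minus intact males, of the genes called and reported, in the fit without an added term (black) and with each term or with short fragment libraries alone, filled where the adjusted p was under 0.1. With the meninges and fibroblast term no point is filled, and Kcnj13 moves from 1.62 to -0.48.

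After removal of the ovaries 42 of the 70 potassium channel genes tested had a log2 fold change below 0, and none was called. The quasi-likelihood test of edgeR called 0 of 70 genes tested, where 0.0335% of all 14910 genes were called. At an unadjusted p under 0.05 there were 12, all lower in OVX females, and 1516 of all genes. At an adjusted p under 0.1 DESeq2 called 4 (0.736% of all genes), with Kcng1, Kcnk9 and Kcnma1 among them, and edgeR's exact test 3 (0.637% of all genes), with Kcng1 and Kcnk9 among them. No tested gene had groups that did not overlap (0 lower, against 0.241% of all genes, and 0 higher, against 0.302%). The median log2 fold change was -0.05, with class medians of -0.03 for voltage-gated, 0.05 for accessory, -0.07 for inward rectifier, -0.06 for two-pore and -0.17 for calcium-activated genes. Leaving out intact female 1 gave 4 calls (0.753% of all genes), and leaving out OVX female 4 gave 1 (0.254%).

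Kcng1, a silent subunit, had 14.1, 18.2 and 20.7 CPM as the lowest, median and highest of the 6 intact females, and 11.4, 13.003 and 15.5 CPM in the OVX females. The ranges overlapped at their ends, and the log2 fold change was -0.45 (adjusted p = 0.15, SE 0.10). Kcnk9 had 51.8, 64.7 and 72.1 CPM against 44.6, 50.4 and 59.9 CPM (log2 fold change -0.31, adjusted p = 0.19), and Kcnma1 57.7, 59.7 and 67.2 CPM against 48.3, 52.6 and 60.1 CPM (log2 fold change -0.21, adjusted p = 0.195). In both the OVX median lay below the lowest intact female, and the ranges overlapped. Among the others at an unadjusted p under 0.05 were Kcnj14 (-0.27), Kcng4 (-0.26), Kcnk3 (-0.21), Kcnj16 (-0.15), Kcnt1 (-0.15), Kcnab2 (-0.11) and Kcnj10 (-0.08), by log2 fold change. None of the pacemaker, partner or pump genes was called by edgeR after OVX, where 0.0335% of all genes were called. Of the 25 tested 8 had an unadjusted p under 0.05, and the count over all genes at that level is given above.

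Of the motor neuron markers edgeR called 0 of 9 after OVX, with 8 at an unadjusted p under 0.05, and their sum was 16406 ± 1913 CPM in intact and 13349 ± 1558 CPM in OVX females. The pan-neuronal sum was 4571 ± 49.9 CPM in intact and 4295 ± 182 CPM in OVX females, with 0 of 11 called and 5 at an unadjusted p under 0.05. Meninges and fibroblast markers summed to 297 ± 133 CPM and 371 ± 77.8 CPM, with 0 of 8 called and 0 at that level, and 1 endothelial marker of 6, Kdr, was higher, with all 6 higher at an unadjusted p under 0.05 (sum 144 ± 32.97 against 201 ± 26.1 CPM). Their part in the potassium channel levels of females was not tested beyond the fits with the pan-neuronal or the meninges and fibroblast level as a term. With the pan-neuronal level edgeR called 0 potassium channel genes (2 at an unadjusted p under 0.05), where 0.00671% of all genes were called. With the meninges and fibroblast level it called 0 (14 at that level), where 0.0402% of all genes were called. All OVX libraries were of the short class. With the fragment class as a term edgeR called 0 potassium channel genes (3 at an unadjusted p under 0.05), where 0.0201% of all genes were called. Among short fragment libraries it called 0 (3 at that level), where 0.0447% of all genes were called. With the class as a term the OVX value of Kcng4 was -0.01 and that of Kcnk9 -0.12.

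GDX and OVX share no samples, so their values can be set side by side. All GDX and OVX libraries were of the short fragment class, while both intact groups also held long ones. Both comparisons thus share this difference, and its part in what follows was not tested. The 21 genes lower after GDX had a median log2 fold change of -0.35 there. After OVX 16 of the 21 were below 0, with a median of -0.10 and a range of -0.31 (Kcnk9) to 0.18 (Kcnip1), while 82.4% of all genes lower after GDX were below 0 after OVX, with a median of -0.06. Whether the change differed between the sexes was tested as the interaction of sex and gonadectomy over all 22 rats. EdgeR called 0 of 72 potassium channel genes (0.116% of all genes). At an unadjusted p under 0.05 there were 14, of which 13 were below 0, and 1810 of all 15562 genes. DESeq2 called 5 (1.00% of all genes), Kcnh2, Kcnip1, Kcna2, Kcnt1 and Kcnab3. The smallest adjusted p in edgeR was that of Kcnh2, 0.144, with an interaction of -0.34 on the log2 scale (SE 0.09). For the same interaction edgeR called 0 of 8 meninges and fibroblast markers (7 at an unadjusted p under 0.05, median 1.33). It called 0 of 4 Schwann cell markers (4 at that level, median 1.22) and 0 of 11 pan-neuronal markers (4 at that level, all below 0, median -0.11). Fits with the pan-neuronal or the meninges and fibroblast level as a term called 0 potassium channel genes (0.263% and 0.00643% of all genes). Beyond these fits the part of the markers in the result was not tested. Kcnh2 had 88.8 ± 4.54 CPM in intact and 86.7 ± 6.24 CPM in OVX females (n = 6 each), where males went from 93.8 ± 5.04 to 72.4 ± 8.39 CPM. Without GDX male 1 the interaction was called in 4 genes (1.75% of all genes), without GDX male 2 in 2 (0.708%) and without intact female 1 in 1 (0.696%).

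Between GDX males and OVX females, whose libraries were all of the short class, edgeR called 0 of 70 genes (0.232% of all genes), with 8 at an unadjusted p under 0.05, all lower in GDX males (1413 of all 15084 genes), and DESeq2 called 1 (0.578% of all genes), Kcnh2 (log2 difference -0.26 and adjusted p = 0.291 in edgeR). With the meninges and fibroblast level as a term 5 were called (1.67% of all genes), with Kcnh2, Kcnc1, Kcnab3 and Kcnt1 among them.

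Between intact males and intact females 5 of 70 genes differed in the test of edgeR, against 4.01% of all genes. Of these 4 were higher in males (1.45% of all genes) and 1 lower (2.56% of all genes). The median log2 difference, male minus female, was 0.08, and 54 of the 70 were above 0. Of 11 pan-neuronal markers 9 were above 0 too, with 5 higher at an unadjusted p under 0.05 and 1 called. All 9 motor neuron markers were below 0, with 1 at that level and 0 called. The part of these markers was not tested beyond the fit with the pan-neuronal level as a term. Kcna2 ranged from 653 to 730.3 CPM in intact males and had 558, 612 and 625 CPM as the lowest, median and highest in intact females, without overlap. Its log2 difference was 0.19 (adjusted p = 0.0198, SE 0.04), and GDX males, with 536 to 608 CPM, lay within or below the range of females. Kcne5, an accessory subunit with a single pass through the membrane, had 13.4 ± 1.18 CPM in intact males and 10.2 ± 1.84 CPM in intact females without overlap (log2 difference 0.41, adjusted p = 0.0923). Kcnh7 had 11.99 ± 2.30 against 8.62 ± 1.32 CPM (0.48, adjusted p = 0.0758). Of 11 fits that left out 1 library, 11 kept the call of Kcna2, 2 that of Kcne5 and 4 that of Kcnh7.

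Kcnj13 was lower in intact males, with 0.471 ± 0.249 CPM against 1.48 ± 0.676 CPM in intact females (log2 difference -1.65, SE 0.42, adjusted p = 0.0537). The females ranged from 0.415 to 2.19 CPM, and 1 of them lay inside the range of males. Kcnj13 passed the filter on low counts only through the females, where it was high, so this test was not independent of the filter either. With no filter edgeR gave a log2 difference of -1.65 (adjusted p = 0.0502), and a filter at 1 CPM left it untested. The call of Kcnj13 was kept in 5 of 11 fits that left out 1 library. Meninges and fibroblast markers were lower in intact males as well, 6 of 8 called (2.56% of all genes were called lower), and their sum was 119 ± 49.4 CPM in males and 297 ± 133 CPM in females. Of 4 Schwann cell markers 2 were called lower in intact males, and all 4 were lower at an unadjusted p under 0.05 (median -1.56). The part of the meninges and fibroblast markers in the sex difference of Kcnj13 was not tested beyond the fit with their level as a term. That of the Schwann cell markers was not tested. With the meninges and fibroblast term edgeR called 0 potassium channel genes (8 at an unadjusted p under 0.05), where 0.154% of all genes were called. It called 0 with the pan-neuronal level as a term (8 at that level, 0.422% of all genes called). Among short fragment libraries it called 0 (13 at that level, 0.225% of all genes called). Without intact male 5 or intact female 4 it called 1 (2.56% and 2.79% of all genes). The log2 difference of Kcnj13 was -0.10 with the meninges and fibroblast term, -1.61 with the pan-neuronal term and -1.78 among short fragment libraries.

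The fragment class was compared among the 11 intact rats with sex as a term. EdgeR called 0 of 72 potassium channel genes between long and short libraries (0.0066% of all genes). At an unadjusted p under 0.05 there were 12, and 1170 of all 15147 genes. DESeq2 called 1 (0.212% of all genes), Kcnj14. Kcnj14, an inward rectifier found in motor neurons, had a log2 difference, long minus short, of 0.29 (adjusted p = 0.361, SE 0.07). The leak channel Kcnk9 had one of 0.29 (adjusted p = 0.416, SE 0.09). With the class as a term the GDX value of Kcnk9 was -0.19. EdgeR called 0 of 9 motor neuron markers between long and short libraries, but all 9 were higher in long ones at an unadjusted p under 0.05 (median 0.37), and their part in the difference was not tested. Kcnt1 had a class difference of 0.02 (SE 0.05) and Kcnh2 one of -0.05 (SE 0.05).

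The filter on low counts left members near the limit of detection untested. Besides Kcne1, Kcnmb3 and Kcnk18 had 1 read each over all libraries, Kcnk15 had 2, Kcnk6 and Kcnj1 3 each, Kcnu1, a sperm channel, 4, and Kcna10 7. Kcnj4, an inward rectifier, had 18 reads in 7 libraries, all from females, 14 in intact and 4 in OVX rats, and 0 in the 10 males. This pattern was picked after its values were seen, so no test of it is given. The accessory subunit Kcne4 had 31 to 55 reads per group and the BK beta subunit Kcnmb1 of smooth muscle 5 to 17. Of the 92 genes 22 were not tested after GDX and 22 after OVX, and 69 were tested in all comparisons.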

How the data were processed

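Single RNA-seq libraries of the ventral cervical spinal cord (C3-C6) of 22 rats were used, each a separate animal. The values are counts of reads per gene as deposited by the authors. The submitters' processing notes name FastQC, TopHat2 2.0.13, the genome build Rnor 6.0, Subread and edgeR, and the paper's methods name Hisat2. Settings for strand, reads with many matches and overlapping genes were not given. Genes were filtered with edgeR 4.0.16 (filterByExpr), scaled by TMM and tested with its quasi-likelihood F test in R 4.3.3 with limma 3.58.1, with Benjamini-Hochberg adjustment over all genes tested and a level of 0.1. CPM use the scaled library size, and limits for a count of 0 are the 95% upper limit of 3 counts. Comparisons were GDX against intact males, OVX against intact females, males against females among intact and among gonadectomized rats, the interaction, and long against short fragment libraries of the intact rats, in a model that held sex. The alternatives tried were RLE factors, DESeq2 1.42.0, leaving out the filter, a filter at 1 CPM, the RNA integrity number, the pan-neuronal level, the meninges and fibroblast level or the fragment class as a term, short fragment libraries alone, the rat number as a block, 1 fit of all rats, edgeR's exact test, and leaving out each library. The code was tested on simulated data, and no library was a copy of another in its own group. Pairs of libraries from unlike groups were not checked. Genes named are the potassium channel genes called in a comparison, a panel chosen by known role, the gene of each class with the smallest p after GDX and after OVX, and members with no reads. Of the lists the called genes and the gene with the largest share of the list's CPM are named. A list is led by that gene, and the share was not divided by length. Kcnc2, Kcnh8, Kcnn1, Kcnj4 and the members with few reads were chosen after their values were seen. The members and lists were chosen with earlier results of these data known. Lists followed were pacemaker channels, channel partners, potassium pumps and cotransporters, and markers of cell types. Promoters are from RefSeq, build GRCr8. Some genes are not reported here.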

Additional observations from a re-analysis of the deposited data

Results flagged for a closer look

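A search over 163 groups of rats, taken from 43 potassium channel genes reported here, looked for a single rat standing apart from the rest of its group. It found 7, and chance flags about 1 in 20 groups.

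Intact male 6 stood apart from its group, as the highest, in 3 of the 7. It had 92.1 CPM of Kcnj14 (others 64.0 to 69.5), 46.0 CPM of Kcnk3 (others 32.6 to 35.7) and 91.7 CPM of Kcnk9 (others 57.7 to 64.6). GDX male 4 was the lowest for Kcng4, with 64.4 CPM (others 76.1 to 78.7).

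Intact female 3 was the highest for Kcnh2, with 97.3 CPM (others 85.3 to 89.7), and the lowest for Kcnip1, with 9.46 CPM (others 12.9 to 14.7). OVX female 5 was the highest for Kcnd3, with 24.6 CPM (others 15.3 to 18.0).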

How the results depend on the processing

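The count of 22 potassium channel genes called after GDX was 5 with the pan-neuronal level as a term, 0 with the meninges and fibroblast level as a term, 11 with the fragment class as a term and 6 among short fragment libraries only. Leave-one-out counts ranged from 11 (without GDX male replicate 5, 7.99% of all genes) to 24 (without GDX male replicate 1, 16.2% of all genes). The median log2 fold change of the 22 genes, -0.35, was -0.35, -0.18, -0.33 and -0.33 in these fits, in the order given. Single genes moved either way under such a median. With the fragment class as a term Kcnh7 went from -0.43 to -0.61 and Kcna2 from -0.25 to -0.22. In the fit that held the meninges and fibroblast level, the GDX value of Kcnj13 reversed to -0.48, that of Kcna1 to 0.00231 and that of the partner gene Amigo1 to 0.0152, on the log2 scale. With RIN as a term 16 genes were called after GDX, 14 of them among the 22. Of 10 leave-one-out fits, 2 kept the call of Kcnc4 and of Kcnj6, 3 that of Hcn3, 4 that of Kcnab3 and of Kcnj12, and 5 that of Kcnip1. In every other fit the called genes kept their direction, and the cause was not tested.

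The count of 0 after OVX was 4 with DESeq2, 3 with edgeR's exact test and 1 with the RNA integrity number (RIN) as a term (0.0738% of all genes). It ranged from 0 to 4 in leave-one-out fits (4 without intact female replicate 1, 1 without OVX female replicate 4).

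The count of 5 between intact males and females was 0 with the pan-neuronal level as a term, 0 with the meninges and fibroblast level as a term, 0 among short fragment libraries only and 1 with the rat number as a replicate block. In leave-one-out fits it ranged from 1 to 5. It was 2, 2, 1 and 2 without intact male replicate 1, 2, 5 or 6, and 3, 2, 1, 3 and 2 without intact female replicate 2, 3, 4, 5 or 6. Over all leave-one-out fits of this comparison 2.33% (without intact male replicate 1) to 5.25% (without intact female replicate 1) of all genes were called.

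Between GDX males and OVX females the count of 0 was 1 with DESeq2 and 5 with the meninges and fibroblast level as a term. It was 1 with all 22 rats in 1 fit (0.392% of all genes), and 0 in each leave-one-out fit. For the interaction the count of 0 was 5 with DESeq2, and ranged from 0 to 4 in leave-one-out fits (4 without GDX male replicate 1, 2 without GDX male replicate 2, 1 without intact female replicate 1). Between long and short fragment libraries the count of 0 was 1 with DESeq2 (0.212% of all genes) and 2 with no filter (0.891%). It was 0 in each leave-one-out fit.

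With the rat number as a replicate block 17 genes were called after GDX (8.56% of all genes) and 0 after OVX (0%). The same block gave 1 between intact males and females (1.70%) and 0 between GDX males and OVX females (0.160%). Deviations of rats with the same number correlated from -0.0769 to 0.00113 for GDX, from -0.0580 to 0.0309 for OVX, from -0.114 to -0.0377 for intact males and females and from -0.0915 to 0.0626 for GDX males and OVX females. These values gave no sign that the numbers pair the samples, but so few pairs cannot exclude it.

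For single genes the direction and the side of the threshold stayed the same in 1873 values, 214 kept the direction and lost the call, 18 kept it and gained a call, and 131 reversed, which means that the log2 fold change took the other sign, with or without a call. Of those called without an added term only Kcnj13, Kcna1 and Amigo1 did so.

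Values reversed after GDX were as follows. With RIN as a term this was Kcnj8 -0.0190. With the pan-neuronal level as a term they were Kcna6 0.0212 and Kcnn2 0.00202. With the meninges and fibroblast level as a term they were Kcnj13 -0.484, Kcna1 0.00231, Amigo1 0.0152, Kcna6 0.0925, Kcng1 0.135, Kcnip3 0.609, Kcnj14 0.1002, Kcnk2 -0.139, Kcnk3 0.0994, Kcnmb4 0.2995, Kcnn2 0.0285 and Kcnt2 -0.219. With the fragment class as a term they were Kcnj14 0.0784, Kcnj3 0.00513, Kcnk13 0.0572, Kcnmb4 0.175, Kcnn2 0.0376 and Kcns3 0.0379. In short fragment libraries only they were Kcnj14 0.0796, Kcnj3 0.0063, Kcnk13 0.0587, Kcnmb4 0.177, Kcnn2 0.0389 and Kcns3 0.0393. With the rat number as a replicate block they were Kcna6 0.00266, Kcnj16 0.0245, Kcnk13 0.23 and Kcnt2 -0.104.

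For genes with a leave-one-out value that reversed after GDX, the range over all leave-one-out fits is given, reversed or not. It was -0.199 to 0.166 for Kcnk13, -0.0196 to 0.0575 for Kcnq3 and -0.0963 to 0.0862 for Kcnmb4. For Kcnt2 it was -0.0601 to 0.131, for Kcna6 -0.0633 to 0.0298 and for Kcnip3 -0.131 to 0.0978. For Kcnj16 it was -0.0465 to 0.0286 and for Kcnj14 -0.114 to 0.0313.

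Values reversed after OVX were as follows. With no filter on low counts this was Kcnmb4 -0.000242. With RIN as a term this was Kcnmb4 -0.0224. With the pan-neuronal level as a term they were Kcna2 0.027, Kcna6 -0.00315, Kcnab1 0.0933, Kcnc1 -0.0456, Kcnd1 0.0495, Kcnd3 -0.0662, Kcnip3 -0.195, Kcnj12 0.0606, Kcnj6 -0.0971, Kcnk1 0.00444, Kcnk13 -0.258, Kcnk2 -0.0252, Kcnk3 0.0119, Kcnn4 -0.295 and Kcnt2 0.145. With the meninges and fibroblast level as a term they were Kcnip3 -0.0496, Kcnj11 0.0255, Kcnj13 -0.0489, Kcnk13 -0.00373, Kcnk2 -0.0963, Kcnmb4 -0.018 and Kcnq3 0.0411. With the fragment class as a term they were Kcna1 0.061, Kcnc1 -0.0098, Kcnd1 0.0241, Kcnh7 -0.0189, Kcnj12 0.067, Kcnj6 -0.0372, Kcnk2 -0.0725, Kcnmb4 -0.00458 and Kcnq3 0.00508. In short fragment libraries only they were Kcna1 0.0573, Kcnc1 -0.0135, Kcnd1 0.0195, Kcnh7 -0.0224, Kcnj12 0.0624, Kcnj6 -0.0406, Kcnk2 -0.0768, Kcnmb4 -0.00851 and Kcnq3 0.00212. With the rat number as a replicate block this was Kcnmb4 -0.0129. With all 22 rats in 1 fit this was Kcnmb4 -0.00107.

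For genes with a leave-one-out value that reversed after OVX, the range over all leave-one-out fits is given, reversed or not. It was -0.0316 to 0.125 for Kcne5, -0.0394 to 0.128 for Kcnip3 and -0.0536 to 0.0339 for Kcnj11. For Kcnk2 it was -0.0247 to 0.12, for Kcnmb4 -0.115 to 0.0556 and for Kcnn4 -0.0899 to 0.31. For Kcnq3 it was -0.074 to 0.0092, for Kcnd3 -0.0800 to 0.0622 and for Kcnc1 -0.00953 to 0.0968. For Kcnj6 it was -0.0400 to 0.142 and for Kcnk13 -0.026 to 0.207.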
